A study of Mus musculus with 2 samples.

Results

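Genes through which myeloid cells hold back T cells were examined in mouse neutrophils cultured with tumor exosomes. The 10 members were chosen by name among the 35522 features of the expression tables, and all 10 were listed: Arg1, Arg2, Nos2, Cd274, Pdcd1lg2, Havcr2, Entpd1, Nt5e, Tgfb1 and Ido1. Exosomes are small vesicles that cells release. Here they came from spheres of CT26, a murine colon carcinoma line, grown in serum-free stem cell medium to enrich sphere-derived cancer stem cells (SDCSCs). Bone marrow neutrophils were sorted as CD11b positive, Ly6G high and Ly6C low to negative cells, and the study's methods give Balb/C mice of 5 to 8 weeks as the source of its immune cells and a sort purity above 80%. Both cultures received 10 ng/ml GM-CSF, a myeloid growth factor, for 3 days. One was given PBS, and the other 20 μg/ml SDCSC exosomes. Each treatment has 1 library of polyadenylated RNA, and whether several animals were pooled is not given in the sources used here. No replicate spread can therefore be given for any difference, and no p-value was computed. The libraries held about 66.0 M (PBS) and 79.1 M (exosome) mapped reads, estimated from the smallest values, with 14679 and 14916 features above 0.

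These genes act on T cells in distinct ways. Arginases and nitric oxide synthase consume arginine, which dividing T cells need, and nitric oxide itself restrains them. PD-L1 and PD-L2 bind the inhibitory receptor PD-1 on T cells. CD39 and CD73 turn extracellular ATP, a danger signal, into adenosine, which quiets lymphocytes and neutrophils through its own receptors. TGF-β1 is a secreted suppressor of T cell activation, and IDO1 breaks down tryptophan. Neutrophils and granulocytic myeloid-derived suppressor cells are known to use several of these routes in tumors.

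The members were split between the 2 libraries. Values are RPKM, read numbers divided by exon length and by the mapped reads of the library, and levels can therefore be compared between genes. A gene was kept for calls when it reached 0.25 RPKM in each library, and was called higher or lower at an exosome to PBS ratio of 2 or more, or of 0.5 or less. Of the 10 members 7 were kept. Cd274, Pdcd1lg2 and Havcr2 were higher with exosomes, Entpd1 and Nt5e were lower, and Arg2 and Tgfb1 lay within 2-fold. Nos2 reached 0.25 RPKM only with exosomes, and Arg1 and Ido1 in neither library. Among all 9698 genes kept, 31.5% were higher and 5.62% were lower, so 3 of 7 and 2 of 7 stand against those shares. The median log2 ratio of the 7 members was 0.33, against 0.53 for all genes kept. The genes kept were thus shifted upward as a whole by a ratio of 1.44, and each ratio below can be read against that. Median centring, used below, subtracts that median from every log2 ratio, and centring by level subtracts the median of the genes kept in the same 1 of 10 equal bins of level.

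**Figure D1:**
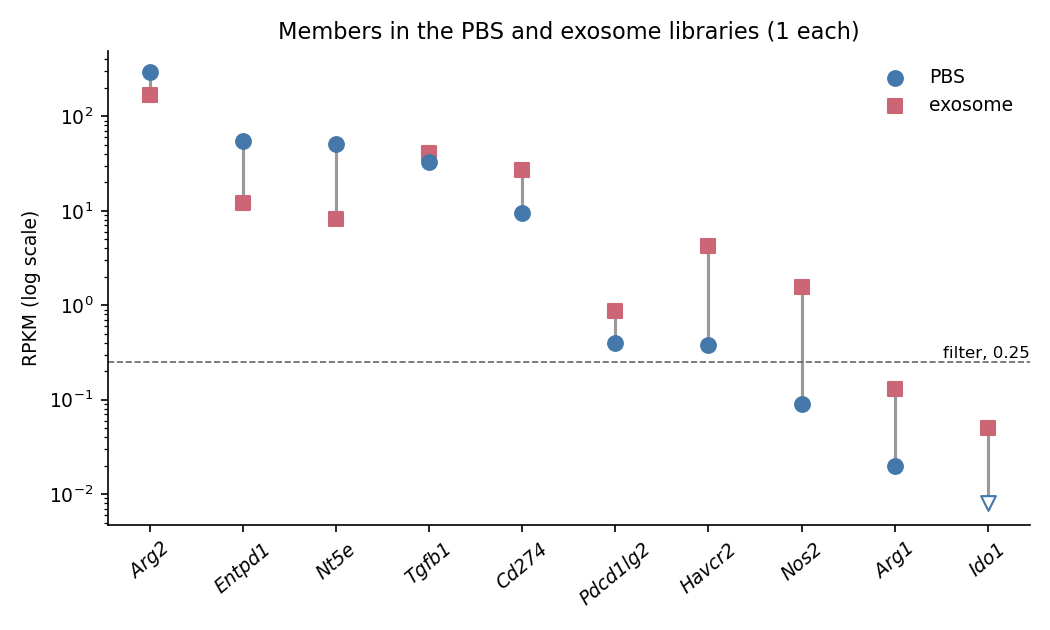
RPKM (log scale) of each member in the PBS library (circles) and the exosome library (squares), ordered by the PBS level, with the 0.25 RPKM filter as a dashed line. Arg2, Entpd1 and Nt5e are the members whose PBS value lies above the exosome value, and the open triangle marks Ido1, listed at 0 in PBS.

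The order of the levels differed. In PBS 4 members stood above 25 RPKM, in the order Arg2, Entpd1, Nt5e and Tgfb1, while 5 members were under 1 RPKM. With exosomes Arg2, Tgfb1 and Cd274 were above 25 RPKM and only Pdcd1lg2, Arg1 and Ido1 remained under 1 RPKM. Ratios of members within a library do not depend on any scaling between libraries. There were 5.79 Entpd1 transcripts and 5.35 Nt5e transcripts for each Cd274 transcript per unit of length in PBS. The same ratios were 0.447 and 0.304 with exosomes, so Cd274 stood above both there. The ratio of Entpd1 to Nt5e was 1.08 in PBS and 1.47 with exosomes, so these 2 remained close.

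Arginase was represented by Arg2, the mitochondrial enzyme. Arg2 (chromosome 12, 79130777 to 79156301, plus strand, GRCm38) had 292.48 RPKM in PBS and 167.62 RPKM with exosomes. It was the highest member in both libraries, at rank 145 of all features in PBS and 266 with exosomes. The ratio was 0.573 (95% counting interval 0.563 to 0.584), a log2 ratio of -0.80, and 751 of the 9698 genes kept had a lower one. Counting intervals rest on reads estimated from RPKM, length and depth, and cover counting error only. An exon of Vti1b (25.52 and 22.98 RPKM) overlaps Arg2 on the other strand, and whether reads were counted by strand is not given in the sources used here. Arg2 was called lower after median centring (log2 ratio -1.33), and not after centring by level (-0.81).

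Arg1, the cytosolic arginase that marks alternatively activated myeloid cells, was barely detected. Arg1 (chromosome 10, 24915221 to 24927484, minus strand) was listed at 0.02 RPKM in PBS and 0.13 RPKM with exosomes, or about 2 and 15 reads. The ratio of 6.5 had a counting interval of 1.45 to 56.3. Arg2 was 14624 times the level of Arg1 in PBS and 1289 times with exosomes, so nearly all arginase transcripts were of Arg2 in both libraries.

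Nos2, the inducible nitric oxide synthase, was a trace in PBS and low with exosomes. Nos2 (chromosome 11, 78920787 to 78960254, plus strand) had 0.09 RPKM in PBS and 1.56 RPKM with exosomes, about 25 and 517 reads. The ratio was 17.3 (counting interval 11.5 to 26.9), the largest among the 9 members listed above 0 in both libraries. It was the 1 member that reached 0.25 RPKM with exosomes only, as did 6.83% of the 10707 features at that level in either library. No member reached it in PBS only, where the share was 2.6%. Arg2 was 3250 times the level of Nos2 in PBS and 107 times with exosomes.

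The genes that supply and use arginine were compared next, as a list of 25 genes, of which 17 were kept. Of these 8 were higher and 1 was lower, against 31.5% and 5.62% of all genes kept. The median log2 ratio was 0.40, under the 0.53 of all genes kept. The arginine transporter gene Slc7a1 had 0.67 RPKM in PBS and 2.74 RPKM with exosomes, a ratio of 4.09. Slc7a2, the transporter induced with Nos2 in macrophages, was close to 0 (0.00579 and 0.04 RPKM). Ass1, which rebuilds arginine from citrulline, was 14.0 times higher (0.22 and 3.07 RPKM) and fell short of the filter in PBS.

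Genes for the cofactor of nitric oxide synthase, tetrahydrobiopterin, were also on that list. Gch1, the first enzyme of its synthesis, had 4.74 and 12.99 RPKM, a ratio of 2.74. Spr, the last enzyme, had a ratio of 4.08 (0.64 and 2.61 RPKM), while Pts, the enzyme between them, was at 47.14 and 40.48 RPKM. The polyamine genes Odc1, Srm and Sms, downstream of arginase, had ratios of 3.18, 4.65 and 3.54. Sat1, which breaks polyamines down and was the highest gene of the list, had a ratio of 0.544 (463.88 and 252.37 RPKM). Ddah2 was the gene called lower (0.99 and 0.45 RPKM), and Smox (69.66 and 59.28 RPKM) and Oaz1 (160.37 and 183.46 RPKM) lay within 2-fold. After median centring 5 genes of the list were higher, and after centring by level 1, where 16.8% and 13.3% of all genes kept were.

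The PD-1 ligands are encoded by neighbors on chromosome 19, 22.8 kb apart, Cd274 at 29367455 to 29388095 and Pdcd1lg2 at 29410919 to 29471161, both on the plus strand. The 250 bases before the start of each (RefSeq, GRCm38.p6) are shown since both genes were called higher, with CG pairs in capitals. They are chr19:29367188-29367437 and chr19:29410669-29410918, both on the plus strand.
Cd274: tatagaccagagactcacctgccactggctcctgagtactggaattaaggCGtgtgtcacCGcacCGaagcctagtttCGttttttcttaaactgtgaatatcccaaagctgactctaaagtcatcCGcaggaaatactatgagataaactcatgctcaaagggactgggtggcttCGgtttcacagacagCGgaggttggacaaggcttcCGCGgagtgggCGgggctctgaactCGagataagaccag
Pdcd1lg2: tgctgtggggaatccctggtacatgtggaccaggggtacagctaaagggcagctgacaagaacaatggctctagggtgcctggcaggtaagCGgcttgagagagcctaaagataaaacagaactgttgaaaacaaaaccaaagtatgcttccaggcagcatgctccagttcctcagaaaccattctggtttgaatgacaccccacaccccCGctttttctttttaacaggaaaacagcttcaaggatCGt
The Cd274 stretch holds 11 CG pairs and that of Pdcd1lg2 holds 3, against a median of 6 in 32851 such stretches.

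Cd274, which encodes PD-L1, had 9.5 RPKM in PBS and 26.74 RPKM with exosomes. The ratio was 2.81 (counting interval 2.69 to 2.95), a log2 ratio of 1.49, and 1705 of the 9698 genes kept had a higher one. An annotated antisense gene that is not among the features listed overlaps Cd274. Pdcd1lg2, which encodes PD-L2, had 0.4 RPKM in PBS and 0.87 RPKM with exosomes. Its ratio of 2.18 rested on about 46 and 119 reads, and the limit for a call lies inside its counting interval, 1.52 to 3.10. Both PD-1 ligands were thus higher with exosomes, at very different levels: per unit of length there were 23.8 Cd274 transcripts for each of Pdcd1lg2 in PBS and 30.7 with exosomes. The scaling decides how far both stand out. After median centring neither was called (log2 ratios 0.97 and 0.59), and after centring by level Cd274 was called (1.18) and Pdcd1lg2 was not (0.60).

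Other surface ligands that meet T cell receptors were less uniform. Of 20 genes 13 were kept, with a median log2 ratio of 0.20. Of the 13, 3 were higher and 2 lower, against 31.5% and 5.62% of all genes kept. Cd80, which binds CD28 and CTLA-4 and also pairs with PD-L1, had 2.62 and 7.93 RPKM, a ratio of 3.03, and Cd274 was at 3.63 and 3.37 times its level. Cd86, the related ligand, had 2.75 and 2.43 RPKM. Cd48, the ligand of 2B4, had the highest ratio of those kept, 25.1 (3.22 and 80.93 RPKM), and Cd47, the signal that limits phagocytosis, had a ratio of 2.22 (26.13 and 57.91 RPKM). Lgals9, a galectin that binds TIM-3, lay within 2-fold at 42.51 and 69.16 RPKM. Vsir, which encodes VISTA and is listed by an older name, was level at 63.4 and 64.36 RPKM. Fgl2 and Icosl were the 2 genes called lower, with ratios of 0.350 (6.17 and 2.16 RPKM) and 0.455 (58.47 and 26.6 RPKM). Lgals3 had 333.94 and 239.83 RPKM.

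**Figure D2:**
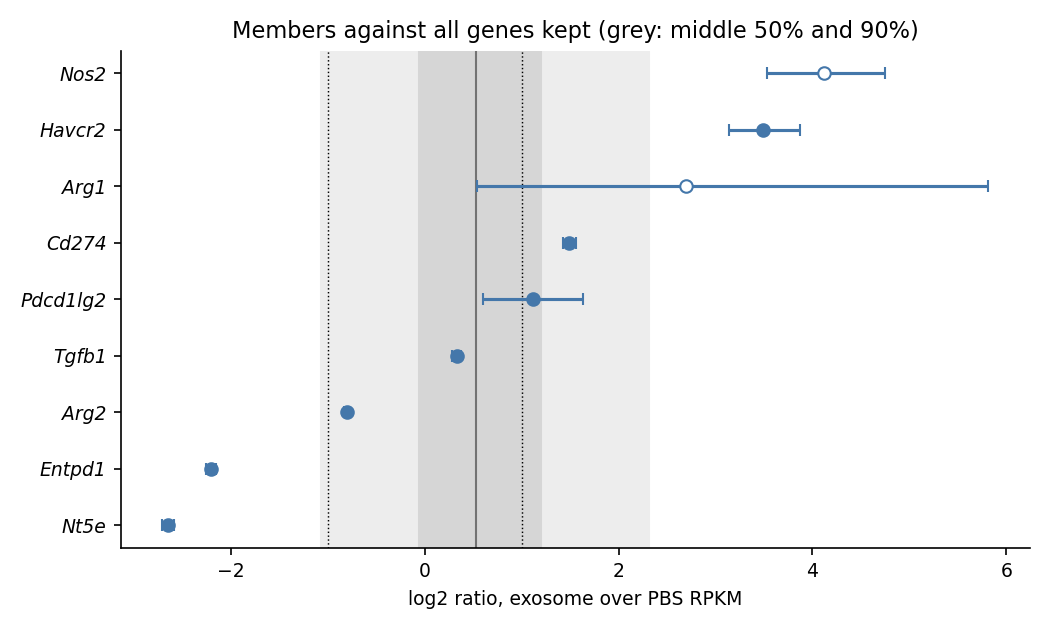
log2 ratio (exosome over PBS RPKM) of the 9 members listed above 0 in both libraries, with 95% counting intervals as bars; open circles are members under the filter. Grey bands hold the middle 50% and 90% of all genes kept, the line is their median of 0.53, and dotted lines mark 2-fold: Nt5e and Entpd1 lie left of both bands, and Havcr2 right of them, as do Nos2 and Arg1 among the members under the filter.

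Havcr2 encodes TIM-3, a receptor of T cells and of some myeloid cells. Havcr2 (chromosome 11, 46454935 to 46481255, plus strand) had 0.38 RPKM in PBS and 4.28 RPKM with exosomes. The ratio of 11.3 (counting interval 8.82 to 14.7, from about 68 and 921 reads) was the highest of the 7 members kept, and 60 of the 9698 genes kept had a higher ratio. It was the 1 member called at 4-fold higher, where 8.52% of the genes kept were. Genes at its level were shifted upward as a whole, with a median log2 ratio of 1.11. Its log2 ratio of 3.49 was 2.38 after that median was removed. The 250 bases before its start hold 2 CG pairs and the letters ACGTG once. These letters are a form of the core of the hypoxia response element. They were searched on both strands, and 16.6% of all such stretches have them. Other forms of that core were not searched.

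Other inhibitory receptors were compared as a list. Of 20 receptor genes and partners 9 were kept, with a median log2 ratio of 0.15. Of the 9, 2 were higher and 0 lower, against 31.5% and 5.62% of all genes kept. Pdcd1, which encodes PD-1 itself, was at 0.00785 and 0.02 RPKM, and Timd4, a relative of TIM-3, was listed at 0 in both libraries. Lair1, an inhibitory collagen receptor of leukocytes, had 0.75 RPKM in PBS and 19.9 RPKM with exosomes, a ratio of 26.5. Btla (2.71 and 1.76 RPKM), Cd244 (1.03 and 1.12 RPKM) and Cd160 (0.44 and 0.33 RPKM) lay within 2-fold. Ptpn11, a phosphatase that inhibitory receptors recruit, was called at the very limit (11.13 and 22.27 RPKM). Its relative Ptpn6 had 278.66 and 546.4 RPKM and a ratio of 1.96. Sirpa, the receptor for CD47, had 280.77 and 311.31 RPKM, and Cd200r1 had the lowest ratio of those kept, 0.570 (32.85 and 18.72 RPKM).

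The adenosine-forming enzymes were the members with the lowest ratios. Entpd1 (chromosome 19, 40612366 to 40741602, plus strand) encodes CD39, which converts ATP and ADP to AMP, and Nt5e (chromosome 9, 88327197 to 88372092, plus strand) encodes CD73, which converts AMP to adenosine. The 250 bases before their starts are chr19:40612116-40612365, the first of 2 Entpd1 starts, and chr9:88327359-88327608, both on the plus strand. RefSeq places the Nt5e start downstream of the first base of the GENCODE gene given above, so its stretch lies inside those bounds. They are shown as those of the members called lower, again with CG pairs in capitals.
Entpd1: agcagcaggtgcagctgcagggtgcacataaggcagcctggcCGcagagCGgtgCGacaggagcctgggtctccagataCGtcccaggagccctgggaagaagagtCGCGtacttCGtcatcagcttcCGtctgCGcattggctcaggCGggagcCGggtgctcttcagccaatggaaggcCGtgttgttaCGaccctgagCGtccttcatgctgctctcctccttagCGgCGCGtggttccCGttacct
Nt5e: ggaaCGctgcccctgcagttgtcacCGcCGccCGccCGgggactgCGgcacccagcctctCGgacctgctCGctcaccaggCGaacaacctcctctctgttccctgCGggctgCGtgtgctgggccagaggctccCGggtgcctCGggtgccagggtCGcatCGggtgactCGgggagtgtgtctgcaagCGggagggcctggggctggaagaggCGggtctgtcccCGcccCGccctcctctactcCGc
These stretches hold 18 and 21 CG pairs, more than those of Cd274, Pdcd1lg2 and Havcr2, and 21.7% and 16.3% of all such stretches have as many. That of Tgfb1, which lay within 2-fold, holds 21 as well. The second Entpd1 start has 8. Of the 10 members 6 were matched to such stretches, and Arg1, Arg2, Nos2 and Ido1 had no entry. Outside Havcr2 none held ACGTG, the only form of the hypoxia element core that was searched. Also searched on both strands were the letters TTCNNNGAA, GGGNNTTCC, and GAAA, any 2 bases and GAAA. These letters were in none of the members' stretches, and in 7.02%, 4.98% and 2.98% of all. They cover only some of the forms that sites of STAT, NF-κB and interferon response factors take, and other spacings and letters of such sites were not searched.

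Entpd1 had 54.99 RPKM in PBS and 11.94 RPKM with exosomes, 4.61-fold lower (log2 ratio -2.20, counting interval -2.25 to -2.15). Nt5e had 50.8 RPKM in PBS and 8.12 RPKM with exosomes, 6.26-fold lower (log2 ratio -2.65, counting interval -2.71 to -2.58). Both successive enzymes were thus lower with exosomes. No more than 79 of the 9698 genes kept had a lower ratio than Entpd1, and 41 a lower ratio than Nt5e. Where 5.62% of all genes kept were called lower, 1.14% were at least 4-fold lower, and both genes were among these. Among the 1030 genes kept that had 50 RPKM or more in PBS, as both did, the share called lower was 15% and the share called higher 6.21%. Fewer cells that carry a transcript and less of it in each cell cannot be told apart in these bulk libraries.

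**Figure D3:**
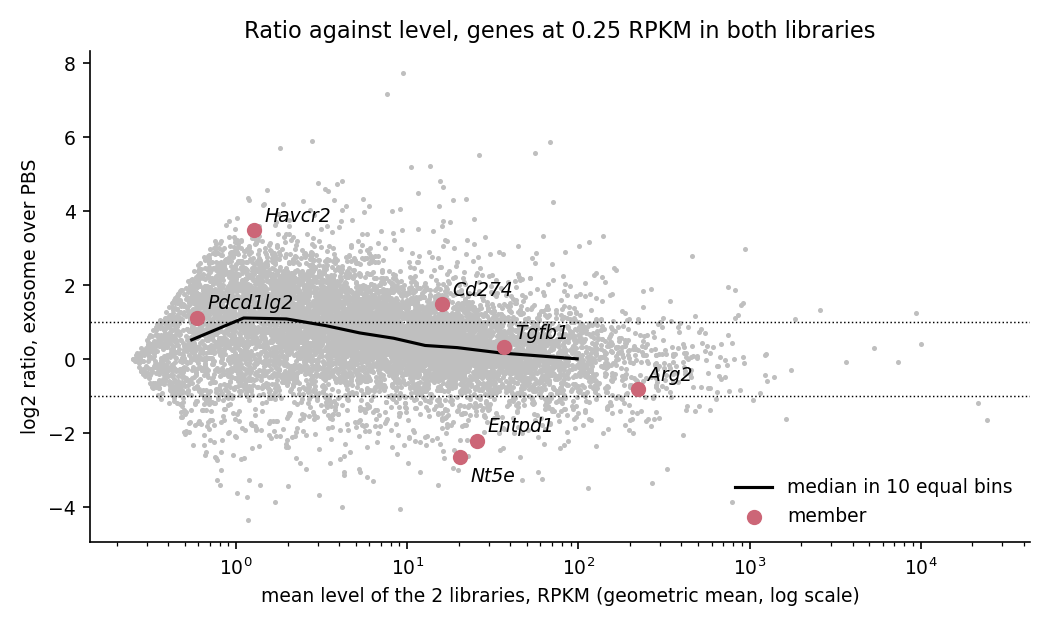
log2 ratio (exosome over PBS) against the geometric mean RPKM of both libraries (log scale) for the 9698 genes kept (grey), with the 7 members kept in color, the median of 10 equal bins as a line and 2-fold as dotted lines. The bin median is 1.11 at its highest and 0.01 in the bin of the highest levels, and Entpd1 and Nt5e lie far below it.

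Before any centring, most of the genes kept around these enzymes were called higher. Of 27 genes for nucleotide breakdown, adenosine handling and purine receptors 16 were kept, with a median log2 ratio of 1.19. Of the 16, 10 were higher and 0 lower, against 31.5% and 5.62% of all genes kept. After median centring 5 of them were higher, and after centring by level 4, where 16.8% and 13.3% of all genes kept were. Adora2a, the adenosine receptor that dampens neutrophil and T cell responses, had 1.24 RPKM in PBS and 24.79 RPKM with exosomes, a ratio of 20.0 (log2 ratio 4.32, counting interval 4.13 to 4.53). Adora2b, the low-affinity adenosine receptor, had 0.15 and 3.23 RPKM and was under the filter in PBS. There were 41.0 Nt5e transcripts for each Adora2a transcript per unit of length in PBS, and 0.328 with exosomes.

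Genes that remove adenosine were low. Slc29a1, a transporter that carries it into cells, had a ratio of 7.08 (0.26 and 1.84 RPKM), Adk, which phosphorylates it, had a ratio of 3.35 (0.37 and 1.24 RPKM), and Ada, which deaminates it, was at 0.08 and 0.27 RPKM. Pnp, the next enzyme in purine breakdown, had 3.16 and 11.23 RPKM. Of the other CD39 relatives, Entpd6 was called higher (1.01 and 2.49 RPKM), and Entpd3, Entpd5 and Entpd7 lay within 2-fold. Cd38, an enzyme of another route to adenosine, had a ratio of 3.06 (1.17 and 3.58 RPKM). Bst1, its relative, had 106.83 and 160.18 RPKM, and P2ry2, a receptor for ATP and UTP, had the lowest ratio of those kept, 0.750 (30.61 and 22.96 RPKM).

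Tgfb1 was similar in both libraries. Tgfb1 (chromosome 7, 25687002 to 25705077, plus strand) had 32.9 RPKM in PBS and 41.35 RPKM with exosomes, a ratio of 1.26 (counting interval 1.22 to 1.30). Its log2 ratio of 0.33 lay under the median of all genes kept, and median centring turned its sign, to -0.20. The level still placed it at rank 1496 of all features in PBS and 1355 with exosomes.

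Most of the TGF-β pathway also lay within 2-fold. Of 28 other genes of the pathway 16 were kept, and the median log2 ratio was 0.08. Of the 16, 0 were higher and 2 lower, against 31.5% and 5.62% of all genes kept. The receptor genes Tgfbr1 (27.33 and 29.8 RPKM) and Tgfbr2 (34.47 and 40.34 RPKM) and Nrros, listed as Lrrc33, whose product holds latent TGF-β1 on myeloid cells (30.76 and 33.05 RPKM), had ratios of 1.09, 1.17 and 1.07. Furin, which cuts the precursor, had 88.75 and 80.16 RPKM, and Skil, a brake on the SMAD factors, had 73.04 and 91.64 RPKM. The genes called lower were Thbs1, whose product thrombospondin-1 activates latent TGF-β (68.66 and 17.18 RPKM), and Tgif2, a SMAD corepressor (7.09 and 1.32 RPKM, ratio 0.186). The highest ratio among those kept was that of Smurf1, 1.85.

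Ido1 was at the edge of detection. Ido1 (chromosome 8, 24584136 to 24597009, minus strand) was listed at 0 in PBS and at 0.05 RPKM with exosomes, about 7 reads. At its length 3 reads, the limit that a count of 0 allows, would be 0.0275 RPKM in PBS and 0.0229 RPKM with exosomes. Its neighbor in function Ido2 was at 0.00503 and 0.01 RPKM.

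Of 21 further genes for tryptophan use 11 were kept, with a median log2 ratio of 0.38. Of the 11, 3 were higher and 1 was lower, against 31.5% and 5.62% of all genes kept. Haao, a late enzyme of the kynurenine route, had a ratio of 0.175 (11.06 and 1.93 RPKM), and Kynu and Kmo lay within 2-fold at 1.31 RPKM or less. Slc7a8, an amino acid transporter, had the highest ratio of those kept, 4.70 (0.37 and 1.74 RPKM), and Slc3a2, its partner chain, had 39.78 and 60.2 RPKM. Wars, the tryptophan-tRNA ligase, had a ratio of 3.18 (2.39 and 7.61 RPKM). Ahr, the receptor for kynurenine, was at 0.08 and 0.11 RPKM.

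**Figure D4:**
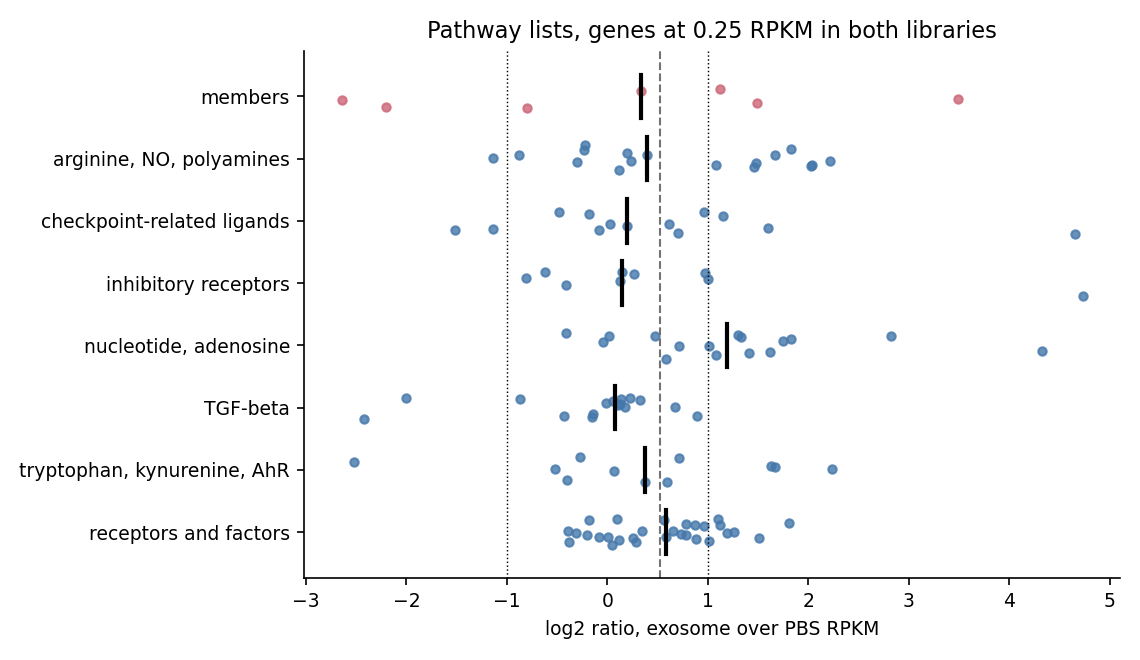
log2 ratio (exosome over PBS RPKM) of the kept genes of each list, 1 point per gene, with the list's median as a bar, the median of all genes kept as a dashed line and 2-fold as dotted lines. The nucleotide and adenosine list has a median of 1.19 and no gene left of the lower dotted line, whereas the TGF-β list is centred at 0.08.

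Receptors and transcription factors that are known to act on the members were above the filter in both libraries, except Epas1 (0.02 and 0.05 RPKM). Of 30 genes 29 were kept, with a median log2 ratio of 0.58. Of the 29, 7 were higher and 0 lower, against 31.5% and 5.62% of all genes kept. Ifngr1, a chain of the interferon-γ receptor that drives Cd274, Nos2 and Ido1 in many cells, had 47.6 and 113.81 RPKM (ratio 2.39), and Ifngr2 had 84.58 and 125.42 RPKM. Irf1, a factor that interferon-γ induces, had 19.55 and 15.04 RPKM (ratio 0.769). Il10ra, the receptor chain for interleukin-10, had the highest ratio of those kept, 3.51 (16.37 and 57.44 RPKM). Hif1a, a factor that acts on Cd274 and Nos2 under low oxygen, had a ratio of 2.17 (38.96 and 84.52 RPKM). Stat6 and Il4ra, which carry the signal that induces Arg1 and Pdcd1lg2, had ratios of 0.808 (129.24 and 104.46 RPKM) and 1.49 (12.89 and 19.26 RPKM). Jak1 had the lowest ratio, 0.764 (145.84 and 111.39 RPKM), and Cebpb had 227.42 and 418.72 RPKM.

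The NF-κB genes held 3 of the 7 genes called higher: Nfkb1 (23.69 and 67.46 RPKM), Nfkb2 (42.4 and 96.51 RPKM) and Relb (24.7 and 53.13 RPKM). Rela had 53.73 and 57.48 RPKM. The other genes of the list at 50 RPKM or more, Ifnar2, Il10rb and Il6ra, had ratios of 0.884, 1.72 and 1.27, and Stat3 had 64.92 and 65.01 RPKM. After median centring 1 gene of the list was higher, Il10ra, and none of the NF-κB genes. After centring by level 5 were higher, with Nfkb1 and Nfkb2 among them but not Relb. The shares of all genes kept were 16.8% and 13.3% under these centrings, so these calls depend on the scaling.

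Cell type markers differed between the libraries as well. The 16 neutrophil markers dominated both libraries, with a summed level of 86985 RPKM in PBS and 35094 RPKM with exosomes. Most of it was S100a8 (32823 and 14382 RPKM) and S100a9 (43059 and 13834 RPKM). All 16 were kept, and 11 were called lower and 1, Lcn2, higher, where 5.62% and 31.5% of all genes kept were. The 16 monocyte and macrophage markers summed to 496.5 and 895 RPKM, none was at 0, and 15 of them were listed higher with exosomes. Of the 10 kept, 6 were higher and 1, Ly6c2, lower. Among the 6 were Emr1 (20.91 and 151.51 RPKM), Csf1r (58.1 and 152.64 RPKM), Apoe (28.64 and 169.37 RPKM) and Ms4a7 (1.02 and 16.79 RPKM). Mertk (0.04 and 0.48 RPKM) and C1qa (0.18 and 1.42 RPKM) were under the filter in PBS and had ratios of 12.0 and 7.89. The part of either list in the values of Havcr2, Nos2, Cd274, Entpd1 and Nt5e was not tested.

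Lymphoid and tumor markers were a smaller share. The 7 B cell markers, a cell type that can carry CD73, were all kept, with none at 0. They summed to 110 RPKM in PBS and 69.0 RPKM with exosomes, a ratio of 0.626. None was called lower, 6 lay within 2-fold and 1, Igj, was called higher (0.29 and 1.05 RPKM). The 10 dendritic cell markers had a sum of 157 and 108 RPKM, again with none at 0. Most of that sum was Cd74 (81.36 and 54.09 RPKM), H2-Aa (41.94 and 32.08 RPKM) and H2-Ab1 (20.59 and 14.83 RPKM). Flt3 (0.14 and 0.05 RPKM), Zbtb46 (0.15 and 0.17 RPKM) and Xcr1 (0.00681 and 0.1 RPKM) were under the filter in both libraries. Of the 10 markers 6 were kept and 2 were lower, against 5.62% of all genes kept. T and NK cell markers, 12 in number, summed to 58.9 and 9.12 RPKM, nearly all of it Cd3d (56.44 and 7.02 RPKM), while Cd3e was at 0.06 and 0.04 RPKM and Gzma was listed at 0 in both. Eosinophil, basophil and mast cell markers summed to 12.6 and 7.06 RPKM, and erythroid and progenitor markers to 1.51 and 2.96 RPKM. The 7 carcinoma markers summed to 1.20 and 1.06 RPKM, with Krt8 listed at 0 in both libraries. The part of these cell types in the members' values was not tested.

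**Figure D5:**
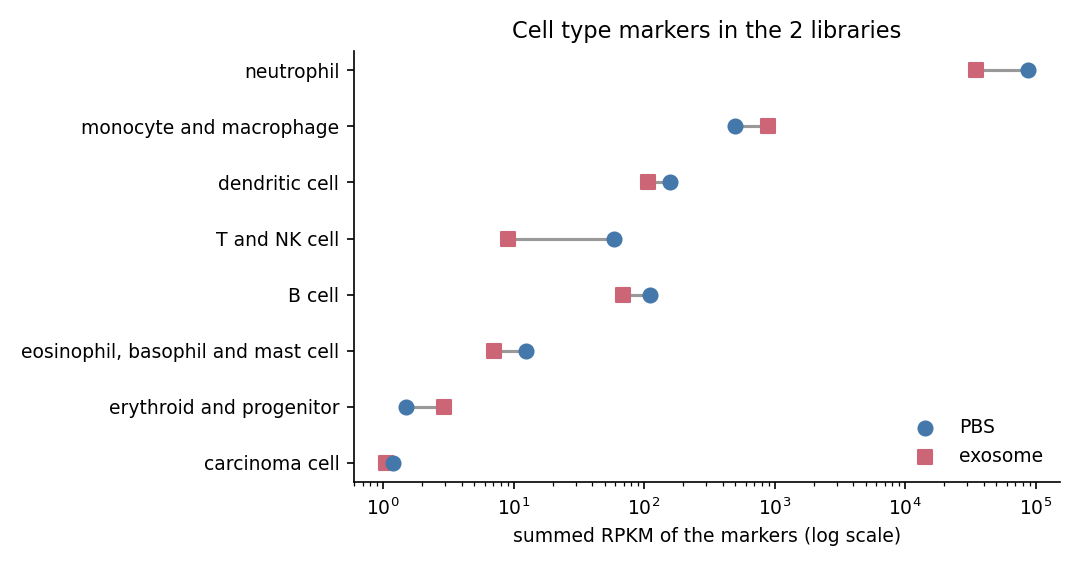
Summed RPKM (log scale) of the markers of each cell type in the PBS library (circles) and the exosome library (squares). Monocyte and macrophage markers (496.5 and 895 RPKM) and the sparse erythroid and progenitor markers are the sums that are higher with exosomes.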

How the data were processed

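The authors sequenced neutrophil RNA from each culture on a HiSeq 2500, from 1 TruSeq mRNA library per treatment. Reads were trimmed below a Phred score of 20 and analysed in CLC Genomics Workbench v8.0, and the authors deposited 1 RPKM value per feature. The submitters' processing notes name build mm10. The gene annotation, the use of strand, the handling of reads shared by genes and any scaling between libraries are not given in the sources used here, and each could shift a ratio. Values above 0.01 RPKM are rounded to 0.01.

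Members were matched by feature name. Depth was estimated from values below 0.01 RPKM, many of which stand for 1 read: with the longest transcript of each gene in GENCODE M21 (GRCm38), 224 of 918 such features in PBS and 270 of 1064 with exosomes gave the same total within 1%, which was 66.0 M and 79.1 M mapped reads. Reads of a gene were estimated from this depth for exact Clopper-Pearson 95% intervals. RPKM values are not counts, no model was fitted, and with 1 library per treatment no p-value was computed. Log2 ratios carry no pseudocount. The members and lists were chosen with earlier results of these data known. All members were named, and from each list the genes kept with the highest and lowest ratio, those past 4-fold or at 50 RPKM or more, and set partners of the members, of which 1 is not reported here. Further list genes were named after their values were seen. Alternatives were other scalings, pseudocounts, filters and ratio limits. Python 3.11.15, pandas 2.3.3 and scipy 1.17.1 were used, and the calls and intervals were tested on simulated reads.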

Additional observations from a re-analysis of the deposited data

How the results depend on the processing

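No paired analysis was possible because each treatment has 1 library, and none could be left out. Entpd1 and Nt5e were called lower under all 11 alternatives, and Havcr2 higher under all but the filter of 1 RPKM, which it does not reach. The 3 members higher became 1 after median centring, after subtraction of a trimmed mean and at a ratio of 4 (Havcr2) and at 1 RPKM in both (Cd274), and 5, with Arg1 and Nos2, without a filter. Both centrings that use 1 value for all genes added Arg2 to the members lower, as did a ratio limit of 1.5. Removal of the trimmed mean turned the sign of Tgfb1 as well (-0.21). Of 61 log2 ratios of members recomputed under settings that can change a ratio, 29 stayed within the counting interval and 32 moved out of it. With pseudocounts of 0.25 and 1 the log2 ratio was 2.41 and 1.23 for Nos2, 2.85 and 1.94 for Havcr2, and 0.78 and 0.42 for Pdcd1lg2, which was then not called. The pseudocount of 0.25 went with a filter of 0.25 RPKM in either library, and Nos2 was called higher there.

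Among all genes, 84.9% of the calls were higher as reported, and 56.0%, 54.7% and 49.7% after median centring, trimmed mean removal and centring by level. The genes higher were then 1634, 1594 and 1290, and those lower 1282, 1322 and 1304. They were 1958 higher at 1 RPKM in both, 1976 with a pseudocount of 1, 4586 at a ratio of 1.5 with 1092 lower, and 826 at a ratio of 4 with 111 lower, and 1436 were lower without a filter. Lists moved too. After median centring 5 arginine genes were higher and 2 lower, 1 receptor or factor gene was higher, 1 inhibitory receptor gene was higher and 2 lower, 5 adenosine genes were higher, and 2 tryptophan genes were lower. After centring by level, 1 arginine gene, 1 ligand gene, 1 inhibitory receptor gene and 4 adenosine genes were higher. Lower were 2 inhibitory receptor and 3 tryptophan genes. The receptor and factor list had 5 genes higher under that centring. The causes were not tested. Depth limits Arg1, Ido1 and Pdcd1lg2, whose PBS values rest on 2, 0 and 46 reads.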

Other observations

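The genes of the CD3 complex, which T cells carry as one receptor, had unequal values in libraries of sorted neutrophils. Cd3d (chromosome 9, 44981786 to 44987339) had 56.44 RPKM in PBS and 7.02 RPKM with exosomes, and its neighbor Cd3g (chromosome 9, 44969572 to 44980431) had 1.19 and 0.11 RPKM. Cd3e, in the same cluster, had 0.06 and 0.04 RPKM, and Cd4 and Cd8a were at 0.1 RPKM or less in both libraries. These genes were singled out after their values were seen.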
